A study of Mus musculus with 12 samples.

Results

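The cullins and the enzymes that attach NEDD8 to them were followed as 10 genes of a raw count table that lists 55376 gene symbols. They were picked by symbol for their role and by no threshold on a measured value: 6 cullins (Cul1, Cul2, Cul3, Cul4a, Cul4b and Cul5), the modifier Nedd8, its conjugating enzyme Ube2m, the RING subunit Rbx1 and the F-box protein Skp2. All 10 were measured in 12 RNA-Seq samples of live O1+ CD45- cells sorted from the brains of C57BL/6 mice at P40, with 2 brains pooled per sample. O1 is a surface lipid of differentiating oligodendrocytes, and CD45 marks leukocytes. The 3 genotypes had 4 samples each: WT, Cnp-Cre Jab1fl/fl (Jab1 mutants) and p21-/- Cnp-Cre Jab1fl/fl (double mutants). In both mutant genotypes the Cnp promoter drives Cre in late oligodendrocyte precursors and oligodendrocytes, and also in Schwann cells, so that floxed Jab1 is deleted there. The p21 allele of the double mutants is a constitutive knockout of Cdkn1a, and no sample carried it without the Jab1 deletion, so its effect alone was not measured.

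Cullins are the scaffolds of the cullin-RING ubiquitin ligases. One end of a cullin binds an adaptor with a substrate receptor and the other end binds a RING protein, RBX1 or RNF7, which recruits the ubiquitin-loaded enzyme. The ligase is switched on when the enzyme UBE2M or UBE2F, charged by NAE1 and UBA3, attaches the small protein NEDD8 to the cullin. JAB1, encoded by Cops5, is the catalytic subunit of the COP9 signalosome, which takes NEDD8 off again and so makes cullins the best known substrates of the deleted enzyme. Transcript counts do not report how much of a cullin protein carries NEDD8, and only mRNA levels are described.

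Total counts per sample were 61485556 to 153495112, deep enough that variation among samples, more than counting error, limited the precision. Levels are given as CPM, read counts scaled to a common library size and corrected for library composition, and differences between genotypes come from edgeR's quasi-likelihood test with Benjamini-Hochberg adjustment over the 17716 genes that passed a minimum expression, called at an adjusted p below 0.05. All 10 genes passed. Cops5 was at 48.4 to 139 CPM in WT, 42.5 to 86.1 CPM in Jab1 mutants and 45.5 to 87.5 CPM in double mutants, and Cdkn1a was at 17.0 to 89.0, 366 to 603 and 63.3 to 106 CPM. Counts per gene do not separate deleted from remaining exons, so neither gene checks the labels. The 10 mature oligodendrocyte markers summed to 40735 to 99258 CPM in WT, 8229 to 33801 CPM in Jab1 mutants and 15760 to 50998 CPM in double mutants, and 6 of them were called lower in Jab1 mutants. The 12 microglia markers summed to 96.3 to 280 CPM, 959 to 2302 CPM and 369 to 16503 CPM, the highest in double-mutant replicate 3, and all 12 were called higher in Jab1 mutants although the sort excluded CD45+ cells. Of the other lists, 5 of 6 endothelial, 4 of 6 mural and 1 of 6 OPC markers were called higher in Jab1 mutants, against 0 of 8 astrocyte and 0 of 8 neuronal markers. The endothelial sums were 283 to 653 CPM in WT, 683 to 4430 CPM in Jab1 mutants and 559 to 4345 CPM in double mutants, and the mural sums 269 to 478, 900 to 1590 and 283 to 1615 CPM. Astrocyte markers summed to between 3006 and 12796 CPM over the 12 samples, neuronal markers to between 147 and 685 CPM and OPC markers to between 823 and 4939 CPM. T cell markers stayed at or below 9.85 CPM in sum. Between Jab1 mutants and WT, the sums of the oligodendrocyte, microglia, endothelial and mural markers moved together with the values below. In double mutants compared with WT, 0 markers of any list were called, where edgeR called 0.192% of all genes tested. The part of any marker list in the values below was not tested. In sorted pools of cells, fewer cells of a type and less RNA per cell cannot be told apart.

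In WT cells the levels were compared between genes as CPM per kilobase of exon. Nedd8 was the most abundant, at 200 ± 86.2 CPM per kb (SD, n = 4), followed by Rbx1 at 103 ± 42.4 CPM per kb. Cul1, the scaffold of the SCF ligases, led the cullins at 37.8 ± 11.7 CPM per kb. Ube2m (15.5 ± 10.02 CPM per kb), Cul2 (13.1 ± 5.48), which scaffolds the VHL ligase, and Cul4a (12.6 ± 3.89) followed. Cul5, which works with SOCS-box receptors, was at 8.21 ± 1.01 CPM per kb, and Cul3, which binds BTB-domain receptors such as KEAP1, at 7.88 ± 2.27 CPM per kb. Cul4b was at 4.02 ± 1.62 and Skp2 lowest at 1.52 ± 0.469 CPM per kb. Between neighbours of this order the ranges of the 4 WT samples overlapped in every pair except Cul4b and Skp2. Within the libraries, the higher gene of a pair exceeded the lower in all 4 for Nedd8 and Rbx1, Rbx1 and Cul1, Cul1 and Ube2m, Cul4a and Cul5, and Cul4b and Skp2. It did so in 3 of 4 for Cul3 and Cul4b, and in 2 of 4 for Ube2m and Cul2, Cul2 and Cul4a, and Cul5 and Cul3, whose order is therefore not settled.

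Jab1 mutants were compared with WT to ask how the substrates and the attaching enzymes of the deleted deneddylase were expressed after its deletion. At the adjusted threshold 0 of the 10 genes were called, where 7.64% of all genes tested were called; DESeq2 on the same samples also called 0, where it called 15.2% of all genes. Cul4b, Cul4a and Cul1 had an unadjusted p below 0.05, the first above and the other 2 below WT, where 22.5% of all genes tested had such a p. Fitted log2 fold changes were above 0 for 3 genes and below 0 for 7, with a median of -0.30, against a median of 0.02 over all genes tested. Without WT replicate 3, a library that stood apart by transcript length, 4 were above and 6 below 0, with a median of -0.20 against 0.04 over all genes. The samples of both genotypes did not overlap for Cul1, Cul4a and Cul5, all lower in Jab1 mutants, a pattern that 9.01% of all genes tested showed, while 8.73% were higher without overlap and 0 of the 10 genes were.

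**Figure D1:**
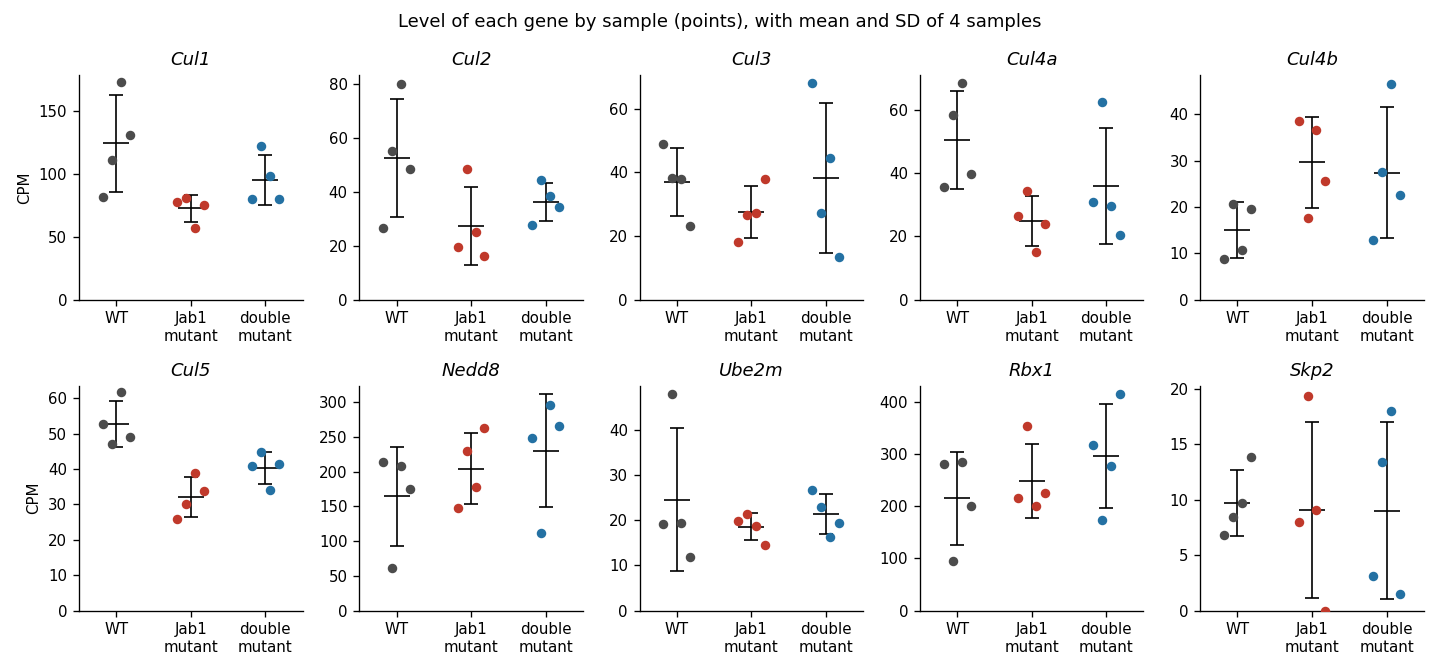
Level of each of the 10 genes in CPM (vertical axes, from 0, with a scale of their own) in the 4 samples of each genotype (points, in replicate order), with the mean (horizontal mark) and SD (bars). The Jab1-mutant points of Cul1, Cul4a and Cul5 lie below all WT points, those of Cul4b lie mostly above them, and Nedd8, Ube2m, Rbx1 and Skp2 overlap across genotypes.

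Cul1 lies on chromosome 6 of GRCm38 (chr6:47453398-47526139, forward strand). Its level was 81.7, 111, 173 and 132 CPM in the WT samples (replicates 1, 3, 5 and 6), and 77.7, 81.0, 57.0 and 75.7 CPM in Jab1 mutants (replicates 1 to 4). The highest mutant sample was just under the lowest WT sample, and the WT samples themselves spread about as widely as the genotypes differed. The fitted log2 fold change was -0.66 (standard error 0.29, 95% interval -1.29 to -0.02, edgeR unadjusted p = 0.0446, adjusted p = 0.207).

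Cul5 (chr9:53614582-53670014, reverse strand) had the lowest coefficient of variation of the 6 cullins in WT, 12.3%, and in double mutants, 11.03%, but not in Jab1 mutants, where it was 17.2% against 14.9% for Cul1. The WT samples were at 52.8, 47.1, 61.8 and 49.1 CPM and the Jab1 mutants at 25.8, 30.0, 38.8 and 33.7 CPM. All 4 mutant samples were below all 4 WT samples, and the log2 fold change was -0.59 (standard error 0.27, edgeR adjusted p = 0.222). Of its exon sequence, 110 bases are shared with genes on the other strand, Gm16124 and Gm22304, and whether counting used strand is not stated.

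Cul2 (chromosome 18) was at 26.7, 55.1, 80.2 and 48.7 CPM in WT and at 19.4, 48.6, 25.0 and 16.3 CPM in Jab1 mutants. Mutant replicate 2 lay among the WT samples and the other 3 mutants were below them all; the log2 fold change was -0.84 (standard error 0.42, edgeR adjusted p = 0.267). Cul3 (chr1:80264923-80340480, reverse strand) overlapped widely, at 23.0 to 49.1 CPM in WT and 18.0 to 38.0 CPM in Jab1 mutants, and its log2 fold change of -0.31 (standard error 0.34) had an adjusted p of 0.662 in edgeR. The interval of Cul3, -1.06 to 0.45 on the log2 scale, leaves room for a difference in either direction.

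The paralogues Cul4a and Cul4b, which share the adaptor DDB1 and the DCAF receptors, stood on opposite sides of WT. Cul4a (chr8:13105621-13147940, forward strand) was at 35.5, 58.3, 68.4 and 39.6 CPM in WT and at 26.6, 34.2, 15.1 and 24.0 CPM in Jab1 mutants, a log2 fold change of -0.90 (standard error 0.34, 95% interval -1.64 to -0.16, edgeR adjusted p = 0.137). Cul4b (chrX:38533274-38576196, reverse strand) was at 8.76, 20.6, 10.8 and 19.7 CPM in WT and at 38.4, 17.7, 36.6 and 25.6 CPM in Jab1 mutants, a log2 fold change of 1.11 (standard error 0.42, 95% interval 0.19 to 2.03, edgeR adjusted p = 0.141). Every mutant sample was below every WT sample for Cul4a, whereas for Cul4b mutant replicate 2 lay within the WT range and the other 3 were above it. With limma-voom and sample quality weights in place of edgeR, Cul4b was called, at 1.31 and an adjusted p of 0.0496, where 10.8% of all genes were called, and over 15 alternatives its adjusted p ranged from 0.0496 to 0.317.

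The 250 bases before each annotated start are shown to compare the flanks of these paralogues, since their transcripts lay on opposite sides of WT. They were taken from RefSeq (GRCm38.p6) and are written 5′ to 3′ on the strand of the gene, with each CG dinucleotide in capitals. The Cul4a flank (chr8:13105373-13105622, forward strand) holds 38 CG dinucleotides and 71.6% G or C, and 98.1% of the 32851 mouse promoters in the table, over the same length, held fewer. The Cul4b flank (chrX:38576197-38576446, reverse strand) holds 9 and 50.8%, and 59.7% of promoters held fewer, the median being 6. These counts describe the sequence, and methylation was not measured.
Cul4a: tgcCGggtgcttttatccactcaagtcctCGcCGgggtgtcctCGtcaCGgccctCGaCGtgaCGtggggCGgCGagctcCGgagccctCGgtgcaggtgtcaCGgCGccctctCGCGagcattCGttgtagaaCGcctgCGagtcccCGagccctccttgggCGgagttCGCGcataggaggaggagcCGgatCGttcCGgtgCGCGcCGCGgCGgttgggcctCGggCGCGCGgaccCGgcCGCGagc
Cul4b: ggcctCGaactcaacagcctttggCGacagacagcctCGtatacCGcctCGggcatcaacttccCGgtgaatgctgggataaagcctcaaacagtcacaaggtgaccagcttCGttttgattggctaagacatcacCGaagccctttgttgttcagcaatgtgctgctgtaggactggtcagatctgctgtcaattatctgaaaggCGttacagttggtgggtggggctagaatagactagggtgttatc

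Cul4b is on the X chromosome, the labels do not give the sex of the mice, and sex-linked transcripts differed between samples. Xist, transcribed from the inactive X, was at 71.7, 0.0810, 0 and 0 CPM in the WT samples, at 380, 328, 652 and 0 CPM in Jab1 mutants, and at 324, 0.0326, 0 and 249 CPM in double mutants (replicates 1, 2, 3 and 5). The Y-linked Ddx3y was at 57.5 to 121 CPM in all 4 WT samples, at 50.5 CPM in Jab1-mutant replicate 4 and at or below 0.0246 CPM in the other 3. In double mutants it was at 2.34, 90.6, 50.5 and 0 CPM. Within WT, the sample with Xist, which also held Ddx3y at 57.5 CPM, had the lowest Cul4b (8.76 CPM). In Jab1 mutants the samples with Xist had 38.4, 17.7 and 36.6 CPM of Cul4b and the one without had 25.6 CPM. In double mutants the samples without Xist had 27.6 and 46.6 CPM of Cul4b and those with Xist had 12.9 and 22.7 CPM. Between Jab1 mutants and WT, sex-linked transcripts thus differed together with genotype in most samples. The part of sex in the difference of Cul4b, or of any other gene, was not tested.

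The ratio of Cul4a to Cul4b within a sample does not depend on library size apart from the 1 CPM added to both. As log2(Cul4a + 1) minus log2(Cul4b + 1) in CPM, it was 1.90, 1.46, 2.56 and 0.98 in WT, so that Cul4a exceeded Cul4b in all 4 samples. It was -0.51, 0.91, -1.23 and -0.09 in Jab1 mutants, and 1.20, 1.15, -0.64 and -0.14 in double mutants. Every Jab1-mutant sample was below every WT sample, and 3 of 4 had more Cul4b than Cul4a counts. The mean ratio was 1.72 ± 0.67 in WT and -0.23 ± 0.89 (SD, n = 4) in Jab1 mutants, a difference of -1.95 or 3.87-fold (exact permutation p = 0.0286, two-sided, which is the minimum for 4 against 4). Adjusted over the 9 ratio comparisons, p was 0.129, above the threshold. An adjusted p below 0.05 was out of reach unless most of the 9 reached the minimum of 0.0286. The adjusted p therefore does not decide whether this ratio differed. In double mutants it was 0.39 ± 0.92, a difference from WT of -1.33 (exact permutation p = 0.0857, adjusted p = 0.257) and from Jab1 mutants of 0.62 (exact permutation p = 0.343, adjusted p = 0.617).

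**Figure D2:**
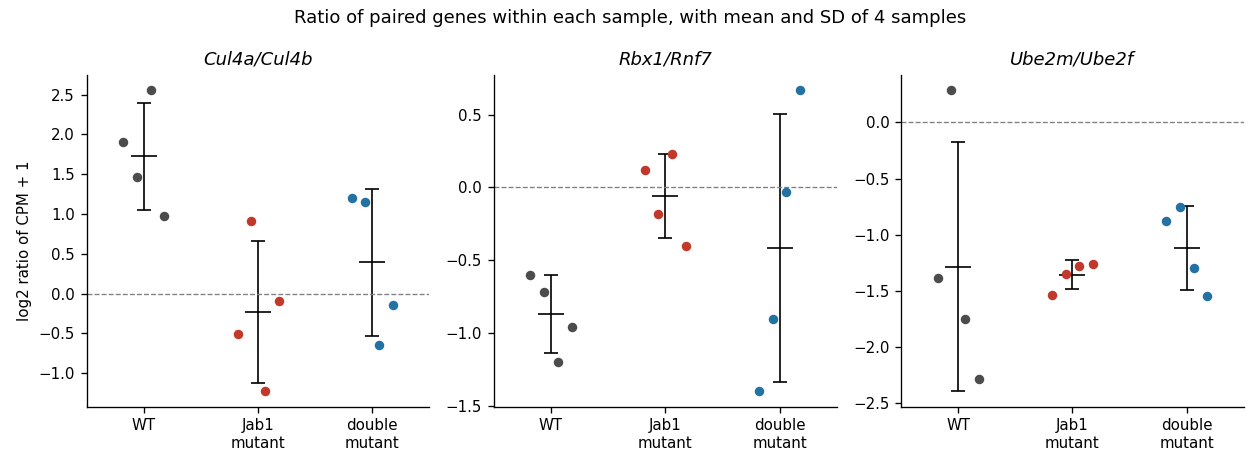
Log2 ratio of CPM + 1 between related genes within each sample (points), for Cul4a to Cul4b, Rbx1 to Rnf7 and Ube2m to Ube2f, with the mean and SD of the 4 samples of each genotype; the dashed line marks equal CPM. For the first and second ratio, Jab1-mutant and WT samples do not overlap; for Ube2m to Ube2f, WT replicate 3 at 0.29 is far above the others.

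Set against the sum of all 6 cullins per kilobase, Cul4b made up 3.84%, 6.65%, 2.63% and 6.62% in the WT samples. It made up 19.4%, 7.88%, 20.1% and 12.9% in Jab1 mutants, so that all 4 were above all WT samples, and 5.48%, 8.81%, 16.9% and 11.4% in double mutants. Cul1 kept the largest share in every genotype, at 44.7 ± 4.90% (SD, n = 4) in WT, 40.9 ± 4.01% in Jab1 mutants and 42.1 ± 3.26% in double mutants. The mean shares of Cul4a were 15.0%, 11.4% and 12.6%, those of Cul2 15.2%, 12.4% and 13.3%, those of Cul3 10.1%, 10.9% and 11.9%, and those of Cul5 10.1%, 9.38% and 9.39%. In absolute terms the 6 cullins summed to 83.7 ± 20.2 CPM per kb in WT, 54.0 ± 4.70 in Jab1 mutants and 68.8 ± 13.3 in double mutants. All 4 Jab1-mutant sums, 49.0 to 60.4 CPM per kb, were below the lowest WT sum of 61.4 CPM per kb. Cul4a and Cul4b together were at 16.7 ± 4.28, 14.2 ± 1.88 and 16.4 ± 6.09 CPM per kb, with overlapping samples. These sums and shares are descriptions chosen after the single genes had been seen, and they were not tested.

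**Figure D3:**
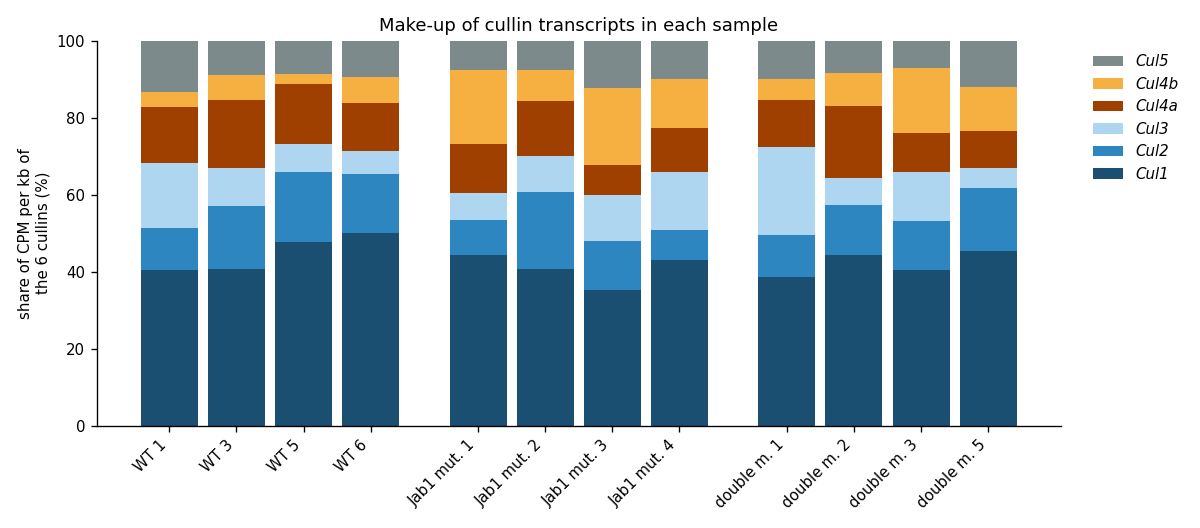
Share of each cullin in the summed CPM per kilobase of the 6 cullins (%, stacked to 100) in each of the 12 samples, grouped by genotype. The Cul4b band is 2.63% to 6.65% in WT, 7.88% to 20.1% in Jab1 mutants and 5.48% to 16.9% in double mutants, and Cul1 is the widest band in every sample.

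The genes that attach NEDD8 overlapped between the genotypes. Nedd8 itself (chr14:55662263-55672124, reverse strand) was at 214, 61.2, 208 and 176 CPM in WT and at 148, 230, 178 and 262 CPM in Jab1 mutants. Apart from WT replicate 3 the samples overlapped, and the log2 fold change of 0.43 (standard error 0.39, edgeR adjusted p = 0.569) dropped to 0.14 without that sample. Rbx1, the RING subunit shared by most cullin ligases (chr15:81466296-81476369, forward strand), was also lowest in that sample, at 281, 95.7, 284 and 200 CPM in WT and 215, 354, 200 and 225 CPM in Jab1 mutants. Its log2 fold change was 0.32 (standard error 0.36, edgeR adjusted p = 0.665), or 0.06 without WT replicate 3. In that library, relative to the other 3 WT samples, the median log2 difference was -0.47 for genes with under 1.5 kb of exons and 0.42 for genes over 5 kb. Double-mutant replicate 2 showed the same to a lesser degree (-0.33 and 0.32), and Nedd8 was lowest in its genotype in this sample too.

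Ube2m (chr7:13035120-13038275, reverse strand), the E2 enzyme of the RBX1 ligases, was at 19.2, 48.0, 19.4 and 11.9 CPM in WT and at 19.8, 21.5, 18.7 and 14.6 CPM in Jab1 mutants. WT replicate 3 was again the sample apart, here as the highest, and all other samples of both genotypes lay between 11.9 and 21.5 CPM. The log2 fold change was -0.28 (standard error 0.44, edgeR adjusted p = 0.764) and became 0.25 without this sample. The other NEDD8 E2, Ube2f, was at 38.9 to 67.8 CPM in WT and 36.4 to 59.6 CPM in Jab1 mutants, and the ratio of Ube2m to Ube2f differed by -0.07 on the log2 scale (two-sided exact permutation p = 0.971).

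The RING subunits were compared within each sample as well. On the log2 scale Rbx1 to Rnf7 was -0.60, -0.72, -1.20 and -0.96 in WT and 0.12, -0.18, 0.23 and -0.40 in Jab1 mutants, with no overlap. RNF7 is the RING partner of CUL5, and its transcript was at 425, 159, 653 and 389 CPM in WT and at 199, 402, 170 and 297 CPM in Jab1 mutants. The mean ratio was -0.87 ± 0.27 in WT and -0.06 ± 0.28 (SD, n = 4) in Jab1 mutants, a difference of 0.81 or 1.75-fold (exact permutation p = 0.0286, two-sided, and 0.129 when adjusted over 9 comparisons). The unadjusted value is again the smallest the test can give, so the adjusted p does not decide this ratio either. In double mutants it scattered from -1.40 to 0.67, which covered the range of both other genotypes, with a difference from WT of 0.45 (exact permutation p = 0.429, adjusted p = 0.624). A processed copy, Rbx1-ps, shares sequence with Rbx1, so counts of Rbx1 are uncertain to the extent that reads match both.

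Skp2 (chr15:9111985-9155425, reverse strand), the F-box receptor that brings the inhibitor p27 to the CUL1 ligase in cycling cells, was the lowest of the 10 genes. Its coefficient of variation was the highest of the 10 in Jab1 mutants, 87.3%, and in double mutants, 88.5%. In WT it was 30.9%, against 64.8% for Ube2m. Skp2 was at 6.80, 8.43, 9.72 and 13.8 CPM in WT and at 7.96, 19.3, 9.01 and 0 CPM in Jab1 mutants. Jab1-mutant replicate 4 had 0 counts of Skp2 among 71888389, which allows a level of up to 0.0382 CPM, whereas replicate 2 had the highest level of all 12 samples. Such a floor covers counting error only, since the reads carry no molecular identifiers. The fitted log2 fold change was 0.00 with a standard error of 1.16, and its 95% interval of -2.53 to 2.53 leaves room for a large difference in either direction. Over 15 alternatives it ranged from -2.05, with limma-voom and sample quality weights, to 0.39, and 0 of them called Skp2.

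In double mutants compared with WT, 0 of the 10 genes were called by edgeR or DESeq2, where edgeR called 0.192% and DESeq2 4.87% of all genes tested. None of the 10 had an unadjusted p below 0.05, where 12.4% of all genes did. Cul4b had the largest log2 fold change, 0.94 (standard error 0.48, 95% interval -0.11 to 1.99, edgeR adjusted p = 0.457), with samples at 12.9, 27.6, 46.6 and 22.7 CPM. Replicate 3, the sample with the highest microglia markers, was the highest, and without it the log2 fold change was 0.54 (edgeR adjusted p = 0.740). Cul5 was at 40.8, 44.9, 34.2 and 41.4 CPM, below every WT sample as in Jab1 mutants, and its log2 fold change was -0.33 (standard error 0.25, edgeR adjusted p = 0.618). It was the 1 gene of the 10 without overlap, where 4.13% of all genes tested were lower and 4.01% higher without overlap.

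The other cullins of the double mutants overlapped WT. Cul1 was at 80.2, 123, 98.9 and 80.1 CPM, Cul2 at 27.8 to 44.5 CPM and Cul4a at 30.9, 62.6, 29.7 and 20.5 CPM, with log2 fold changes of -0.33, -0.48 and -0.45. Cul3 spread the most, at 67.9, 27.2, 44.7 and 13.4 CPM, and its log2 fold change of 0.10 turned to -0.31 without replicate 1 and to -0.05 without WT replicate 6. Nedd8 was at 248, 112, 296 and 265 CPM (log2 fold change 0.55), Rbx1 at 316, 173, 278 and 415 CPM (0.52), Ube2m at 16.4 to 26.7 CPM (-0.15) and Skp2 at 3.13, 13.4, 18.0 and 1.52 CPM (-0.05). Without WT replicate 3 the log2 fold change was 0.27 for Nedd8, 0.28 for Rbx1 and 0.40 for Ube2m. The edgeR adjusted p of these 8 genes lay between 0.615 and 0.987.

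Double mutants were compared with Jab1 mutants to ask whether loss of p21 changed these transcripts. The edgeR test called 0 of the 10 genes, and 0% of all genes tested. DESeq2 also called 0 of the 10, and 0.491% of all genes. The targeted Cdkn1a was itself not called by edgeR, at -2.35 without overlap (edgeR adjusted p = 0.0916, DESeq2 adjusted p = 1.57e-10). The 0 calls of edgeR therefore do not decide whether loss of p21 changed the 10 genes. At an unadjusted p below 0.05 there were 0 of the 10 and 5.0% of all genes, and 0 of the 10 were without overlap, against 1.91% of all genes lower and 1.35% higher. Of the 10 fitted log2 fold changes 8 were above 0, with a median of 0.24 against 0.02 over all genes tested. The mean CPM of Cul1, Cul2, Cul4a, Cul4b, Cul5 and Ube2m in double mutants lay between those of WT and Jab1 mutants. Those of Cul3, Nedd8 and Rbx1 were above both, and that of Skp2 was below both. The log2 fold changes from the Jab1 mutants were 0.34 for Cul1, 0.37 for Cul2, 0.42 for Cul3, 0.47 for Cul4a and 0.27 for Cul5. Single libraries carried some of these: Cul3 was at 0.01 without double-mutant replicate 1 and Cul4a at 0.08 without double-mutant replicate 2. For Cul4b the log2 fold change was -0.16 (95% interval -1.16 to 0.84). Each of the 3 comparisons shares its samples with the others, so these values are not independent of those against WT.

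**Figure D4:**
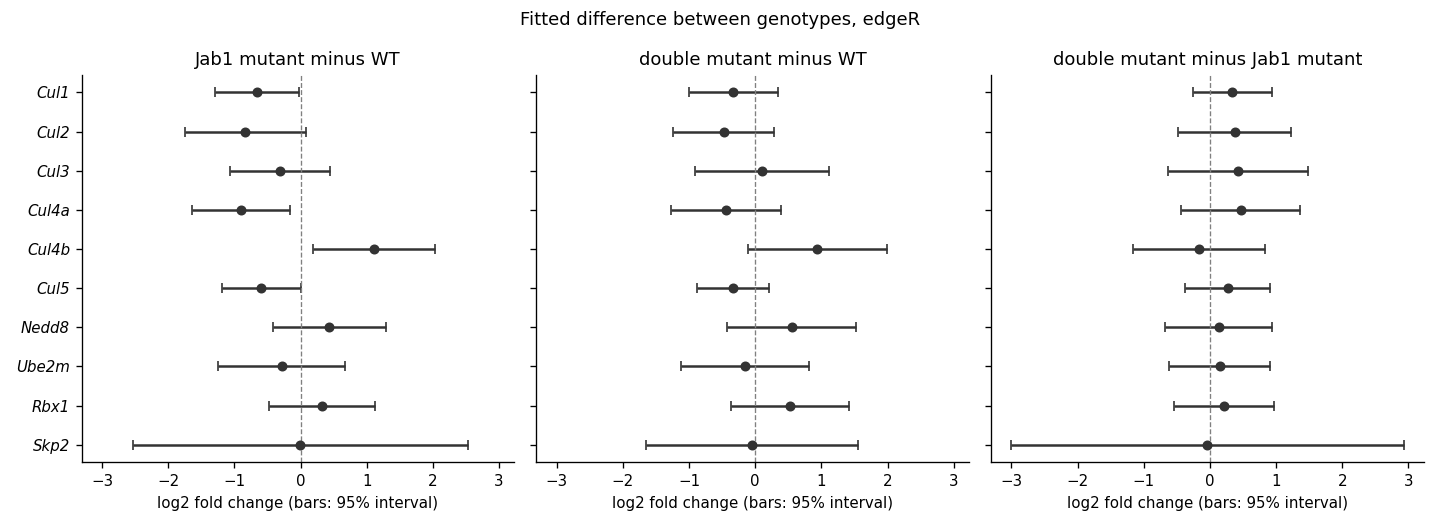
Fitted log2 fold change of the 10 genes (points) with its 95% interval (bars) from edgeR in the 3 comparisons of genotypes, 4 samples against 4; the dashed line marks no difference. Only in the first panel do intervals of Cul1, Cul4a and Cul4b leave out 0, and the widest intervals belong to Skp2.

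The 74 other genes of the pathway were taken from 6 lists by role, all of which passed the filter. In Jab1 mutants compared with WT, 1 was called higher and 2 lower, all of them substrate receptors, by edgeR, next to the 7.64% called among all genes tested. DESeq2 called 5 higher and 2 lower, next to 15.2%. Fbxw7, the receptor of the CUL1 ligase for cyclin E and MYC, was at 18.4, 12.6, 12.5 and 11.8 CPM in WT and at 50.5, 28.1, 39.9 and 29.2 CPM in Jab1 mutants, a log2 fold change of 1.54 (standard error 0.34, edgeR adjusted p = 0.0211). Fbxo7, an F-box protein linked to parkinsonism, was at 175, 138, 344 and 171 CPM in WT and at 69.1, 93.3, 50.2 and 56.1 CPM, a log2 fold change of -1.51 (standard error 0.35, edgeR adjusted p = 0.0246). The samples of both genotypes did not overlap for Fbxw7 or Fbxo7. Of the 74 genes, 4 were higher and 8 lower without overlap, next to 8.73% and 9.01% of all genes tested. The count of calls rested on single libraries: without Jab1-mutant replicate 1 the count was 0, and without WT replicate 5 or Jab1-mutant replicate 3 or 4 it was 1. Fbxw7 lies across Gm37240 and Fbxo7 across A230060F14Rik on the other strand, and Fbxo7 shares 314 exon bases with such genes.

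Among the NEDD8 conjugation genes 0 of 11 were called by edgeR or DESeq2, and 9 of the 11 log2 fold changes were below 0 with a median of -0.28. Dcun1d4, a co-factor that promotes NEDD8 transfer, was at -0.99 (edgeR unadjusted p = 0.0284, adjusted p = 0.162) and Arih2, a partner ligase of neddylated CUL5, at -0.71 (adjusted p = 0.225). Dcun1d4 was the 1 gene of the 11 lower in Jab1 mutants without overlap, next to 9.01% of all genes tested. Of the COP9 signalosome subunits and other genes of NEDD8 removal or receptor exchange 0 of 16 were called by either tool and 14 were below 0, with a median of -0.32. In this list Cops5 was at -0.62 (edgeR adjusted p = 0.349) and Gps1, another subunit, at -0.48 (adjusted p = 0.499). All 3 of the other cullin-like genes were below 0, 0 of them called by either tool, with Cul9 at -1.09 (edgeR adjusted p = 0.219) and Anapc2, the cullin subunit of the anaphase-promoting complex, at -0.69 (adjusted p = 0.249). Without WT replicate 3 all 3 were also below 0, and their median moved from -0.69 to -0.36.

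The adaptors stood on the other side, with 5 of 6 above 0, a median of 0.54 and 0 called by edgeR or DESeq2. Without WT replicate 3 the count was also 5 of 6 and the median 0.32. Cks1b, which helps SKP2 to bind p27, was at 1.24 (edgeR adjusted p = 0.221) and Elob, part of the elongin adaptor of CUL2 and CUL5, at 0.68 (adjusted p = 0.374), or 0.38 without WT replicate 3. Of the 28 substrate receptors 10 were above and 18 below 0, with a median of -0.32. Transcripts of ligase substrates were above 0 for 8 of 10, with a median of 0.40, and edgeR called 0 and DESeq2 1 of them. Nfkbia, the NF-κB inhibitor that is degraded through the CUL1 ligase, was at 1.45 (edgeR adjusted p = 0.0854, DESeq2 adjusted p = 0.00931) and Wee1, a mitotic kinase, at 1.40 (adjusted p = 0.196). Over all genes tested the median was 0.02, and the lists are described by these counts alone.

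**Figure D5:**
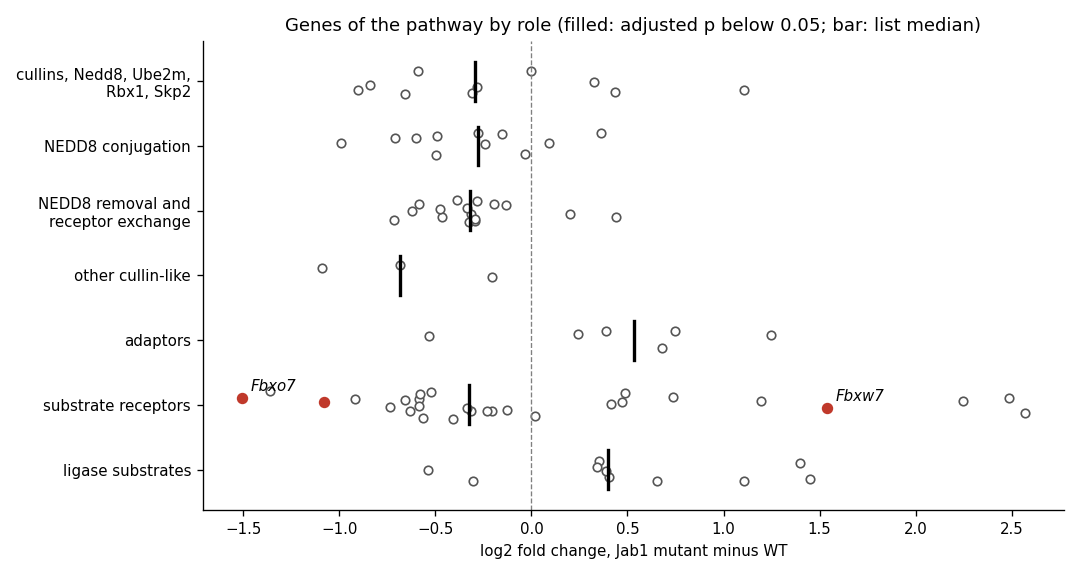
Fitted log2 fold change between Jab1 mutants and WT (horizontal axis) of the 10 genes and the 74 other pathway genes (circles), in rows by role with jitter for visibility; filled circles had an edgeR adjusted p below 0.05 and black bars mark list medians. The 3 filled circles, with Fbxo7 and Fbxw7 named, are all substrate receptors, and the medians lie between -0.69 for the other cullin-like genes and 0.54 for the adaptors.

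In double mutants compared with WT, edgeR called 0 and DESeq2 called 2 of the 74 pathway genes, next to 0.192% and 4.87% of all genes. At an unadjusted p below 0.05 there were 3 above and 2 below WT, next to 12.4% of all genes. The 2 genes called were Socs3, a receptor of CUL5 that is induced by cytokines, and Fbxw7. Socs3 was at 3.07 on the log2 scale (standard error 0.62, edgeR adjusted p = 0.0874), and Fbxw7 at 1.12 (standard error 0.33, edgeR adjusted p = 0.206). Socs3 was also higher in Jab1 mutants than in WT, at 2.25 (edgeR adjusted p = 0.0743, DESeq2 adjusted p = 0.00807). Fbxw7 was at 27.4, 22.5, 35.4 and 29.7 CPM in double mutants, above every WT sample. Of the 74 genes, 2 were higher and 0 lower without overlap, next to 4.01% and 4.13% of all genes tested. Fbxo7 overlapped WT here, at 219, 82.9, 113 and 65.6 CPM (-0.73, edgeR adjusted p = 0.526), and its value in replicate 1 lay within the WT range while the other 3 were below it. Dcun1d2 (-0.84) and Dcun1d4 (-0.80) of the conjugation list, Cops7b (-0.59), Cul9 (-0.98), Anapc2 (-0.32), Cks1b (1.24), Eloc (0.63), Nfkbia (1.31), Wee1 (1.55) and Cops5 (-0.82) had edgeR adjusted p from 0.279 to 0.780.

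Between double mutants and Jab1 mutants edgeR and DESeq2 called 0 of the 74 pathway genes, next to 0% and 0.491% of all genes, and 0 had an unadjusted p below 0.05, next to 5.0%. The log2 fold change was above 0 for 54 and below 0 for 20, with a median of 0.16. Among the receptors Fbxo7 had the smallest p, and its log2 fold change was 0.79 (standard error 0.40, edgeR adjusted p = 0.982). The other genes nearest to a difference in their lists were Dcun1d5 (-0.52) and Dcun1d1 (0.61), Cops2 (0.47) and Cops6 (0.56), Anapc2 (0.38) and Cul9 (0.13), Skp1a (0.32) and Eloc (0.25), and Cdkn1b (-0.70) and Rhoa (0.49).

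The gene with the pattern most like each of the 10 was sought among all genes tested, as the smallest root mean square difference of centred log2(CPM + 1) over the 12 samples. The closest match was that of Rbx1 with Park7, at 0.0912, where Rbx1 itself varied with an SD of 0.553. Nedd8 was closest to Cox4i1 (0.131), Cul5 to Nipsnap2 (0.164), Ube2m to Nudt3 (0.164), Cul1 to Zfr (0.193) and Cul4a to Trpc4ap (0.206). The matches were looser for Cul2 with Raver1 (0.263), Cul3 with Eaf2 (0.281), Cul4b with Camkk2 (0.307) and Skp2 with Zfp963 (0.547). These are similarities of level over samples that share libraries and genotypes.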

How the data were processed

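The members and the gene lists were chosen by role, with earlier results of these data known. The authors trimmed paired reads of SMART-Seq v4 libraries with Trimmomatic 0.32, aligned them with STAR 2.5.3a to GRCm38 and counted them with featureCounts (GENCODE basic). What they deposited is a table of raw read counts by gene symbol, with no normalization. Use of strand and of reads with several matches is not stated, and 0 columns belonged to other samples. Groups were taken from the sample labels. CPM values used TMM factors of all 12 samples. Genes at 1 CPM or more in at least 4 samples were tested with edgeR 4.0.16 (R 4.3.3), fitted on the 8 samples compared. No label says that the pools of 2 brains came from separate litters or days, so p-values measure the spread between these pools. Ratios were tested by two-sided exact permutation (scipy 1.17.1), Benjamini-Hochberg adjusted over 9 tests. Exon lengths and positions came from GENCODE M21 basic, in which 98.2% of symbols matched 1 gene. No replicates were merged, since the most alike pair had a chi-square of 209.9 for each degree of freedom. Alternatives were upper-quartile factors, no filter, DESeq2 1.42.0, all 12 samples in one fit, limma-voom with sample quality weights (limma 3.58.1), the replicate number as a block, other pseudocounts or size factors for ratios, and each sample left out. List counts without WT replicate 3 were added after seeing the data. The fits were tested on simulated data. The text names the 10 genes, the targeted genes, the ratio partners, called pathway genes, the 2 of each list with the smallest p in a comparison, and the closest match of each gene; 1 called pathway gene is not reported here by name. Xist and Ddx3y were named after their values were seen.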

Additional observations from a re-analysis of the deposited data

Results flagged for a closer look

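Of 39 sets of 4 samples, 1 held a sample far from the others, where chance alone gives about 1 in 20. Rbx1 in Jab1-mutant replicate 2 was at 354 CPM against 200 to 225 CPM in the other 3 samples, a gap of 0.836 of the whole range that is just past Dixon's 95% limit for 4 samples. Why this sample stood apart was not tested.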

How the results depend on the processing

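Of the 10 genes, 0 were called in each comparison under every alternative run, except that limma-voom with quality weights called 1, Cul4b, between Jab1 mutants and WT. Of 1200 alternative fits of single genes, 1127 kept direction and side of the threshold, 19 lost and 15 gained a call, and 39 changed sign. The 3 pathway genes called between Jab1 mutants and WT became 7 with DESeq2 on 8 samples, 6 with DESeq2 on 12, 6 with limma-voom and quality weights and 1 without the filter, and 0 to 4 when each sample was left out. Between double mutants and WT the 0 became 2 with either DESeq2 fit and 1 with all 12 samples in one edgeR fit, and 0 to 1 with samples left out. Same-numbered samples did not deviate together (correlations -0.189 to 0.0841), which gave no sign that the numbers pair them. A pairing with a small effect would not show in these correlations. With the replicate number as a block 0 pathway genes were called between Jab1 mutants and WT. The block fit reads the genotype difference only from samples that share a number. These are replicates 1 and 3 between Jab1 mutants and WT, and 1, 3 and 5 between double mutants and WT. Between double and Jab1 mutants they are 1, 2 and 3, and the other samples do not enter the difference. Under the block Cops5 moved from -0.62 to -0.01 between Jab1 mutants and WT, and signs changed for Skp2 (0.30) and Ube2f (0.37) between Jab1 mutants and WT, Cul3 (-0.17) and Ube2f (0.03) between double mutants and WT, and Rbx1 (-0.04) and Cul9 (-0.06) between double and Jab1 mutants. Under limma-voom with quality weights they changed for Ube2m (0.18), then Cul3 (-0.11), Ube2m (0.28) and Rnf7 (-0.06), and then Skp2 (1.43) and Cul9 (-0.20), in the same order of comparisons, and under upper-quartile factors for Skp2 (0.02) between Jab1 mutants and WT. Between Jab1 mutants and WT, Skp2 kept its sign under limma-voom with quality weights but moved to -2.05. With samples left out, log2 fold changes that crossed 0 ranged between Jab1 mutants and WT from -0.51 to 0.25 (Ube2m), -0.66 to 0.39 (Skp2) and -0.19 to 0.07 (Ube2f). Between double mutants and WT they ranged from -0.31 to 0.38 (Cul3), -0.34 to 0.40 (Ube2m), -0.68 to 0.30 (Skp2), -0.42 to 0.45 (Rnf7) and -0.52 to 0.02 (Anapc2). Between double and Jab1 mutants they ranged from -0.54 to 0.09 (Cul4b), 0.00 to 0.37 (Nedd8), -0.01 to 0.41 (Rbx1), -0.65 to 0.60 (Skp2), -0.24 to 0.00 (Ube2f) and -0.61 to 0.47 (Cul9). The Ube2m to Ube2f ratio ranged from -0.41 to 0.45 between Jab1 mutants and WT and from -0.17 to 0.69 between double mutants and WT. With 3 samples against 4 the smallest exact p is 0.0571, so leaving one out says nothing of the ratio calls. The 10 genes had counts above 0 in every library, apart from Skp2 at 0 among the 71888389 counts of Jab1-mutant replicate 4. The causes of these changes and of that 0 were not tested.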
